A study of Mus musculus with 30 samples.

Results

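Open chromatin regions that were less accessible at 45 min from the onset of acute restraint were chosen in one part of the libraries of a mouse stress experiment and then read in the other part. ATAC-seq, a transposase-based assay whose fragments come from accessible DNA, had been run on ventral hippocampus nuclei of 30 mice, 1 library per mouse. The mice were handled, or were restrained daily for 10 days. Some were taken from the home cage (0 min, no acute restraint, 8 mice of each history). The others were taken 45 min after an acute restraint began (7 mice of each). For the chronically restrained mice that restraint was a further one. The members are the 500 peaks with the smallest Welch t for 45 min against 0 min in batches 1 and 2, which held 8 libraries of each time, out of 248600 eligible peaks (autosomal, mean count of at least 20) and 257149 peaks in all. They were selected on log2(CPM + 0.5), where CPM scales the count in a peak to the total count of the library, after each batch mean had been subtracted. The peaks are called lost peaks here for this direction in batches 1 and 2, and the 500 peaks with the largest t are called gained peaks.

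The libraries of batches 3 and 4 played no part in the t of any peak. They comprised 4 handled mice at 0 min (2 females, 2 males), 3 handled mice at 45 min (1 female, 2 males), 4 chronically restrained mice at 0 min (2 females, 2 males) and 3 chronically restrained mice at 45 min (2 females, 1 male). At 45 min, batch 4 had 1 handled and 1 chronically restrained mouse. Strain and age are not given in the sources used here. Every group underwent single housing before collection, so the 0 min mice shared it, and all mice had a history of handling or restraint.

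ATAC-seq peaks mark promoters and enhancers, stretches of DNA where nucleosomes are displaced and transcription factors can bind. In the hippocampus, restraint raises corticosterone, which acts through the glucocorticoid receptor and the mineralocorticoid receptor, and neuronal activity induces immediate early genes. Receptor binding is known for opening chromatin at its targets, while loss of accessibility is described at enhancers whose factors leave. In bulk tissue, fewer nuclei of a type with an open region and a less open region in every nucleus cannot be told apart.

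Of the lost peaks, 13 held at least 1 whole RefSeq promoter window (250 bases before to 50 after a transcription start), with 19 windows in all. The windows of the histone deacetylases Hdac9 and Hdac5 and of Nr3c2, the mineralocorticoid receptor, are shown because these peaks are returned to below. Capitals mark 3 motifs, searched on both strands: TGANTCA of AP-1, TGACG of the cAMP response element and the E-box CANNTG, and where 2 matches overlap the capitals run together.
Hdac9 promoter, chr12:34528840-34529139, minus strand, GRCm38.p6: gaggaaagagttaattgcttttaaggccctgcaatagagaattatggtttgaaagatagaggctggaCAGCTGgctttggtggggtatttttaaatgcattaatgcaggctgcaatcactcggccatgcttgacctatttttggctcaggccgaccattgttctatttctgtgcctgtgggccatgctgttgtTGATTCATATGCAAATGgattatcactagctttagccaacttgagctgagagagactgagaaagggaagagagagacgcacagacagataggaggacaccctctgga
Hdac5 promoter, chr11:102230123-102230422, minus strand, GRCm38.p6: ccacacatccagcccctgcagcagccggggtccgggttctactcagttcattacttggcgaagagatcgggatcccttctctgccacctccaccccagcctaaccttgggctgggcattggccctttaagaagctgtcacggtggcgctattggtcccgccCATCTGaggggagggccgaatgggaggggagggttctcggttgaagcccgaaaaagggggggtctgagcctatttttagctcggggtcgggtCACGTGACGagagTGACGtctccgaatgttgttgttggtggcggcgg
Nr3c2 promoter, chr8:76902080-76902379, plus strand, GRCm38.p6: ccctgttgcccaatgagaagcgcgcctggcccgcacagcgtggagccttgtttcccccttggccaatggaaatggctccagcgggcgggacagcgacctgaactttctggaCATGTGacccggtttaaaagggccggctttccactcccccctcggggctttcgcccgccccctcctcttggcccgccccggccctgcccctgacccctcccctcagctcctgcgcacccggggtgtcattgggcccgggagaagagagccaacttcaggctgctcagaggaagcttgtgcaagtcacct

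AP-1 letters were in 1 of the 19 windows (5.26%), the window of Hdac9, against 5.0% of the 15595 windows inside eligible peaks and 7.81% of all 32851 windows. TGACG was in 3 windows (15.8%), with 2 matches in the Hdac5 window, against 29.7% inside eligible peaks and 20.8% of all. The E-box was in 12 windows (63.2%), against 64.8% and 72.3%, and its form CAGATG, which NeuroD factors bind, in 3 (15.8%), against 12.7% and 17.2%. No window held the glucocorticoid response element core ACANNNTGT, which 4.31% and 6.85% held. Their median GC content was 59.7%, against 61.0% inside eligible peaks and 52.7% of all windows. These shares rest on 19 windows and their differences were not tested. A match is a run of letters, not a bound site, and some windows that lie within one peak overlap.

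The widest lost peak covered 21446 bp at chr3:88212987-88234432, 8442 bp from the nearest protein coding gene, Rhbg. It covered the hairpin of Mir9-1, which gives miR-9, a microRNA abundant in brain and known for its part in neurogenesis, and the hairpins of Mir3093 and Gm25641. The mature arms are shown because this peak had the highest mean count (5408) of the lost peaks, with the seed (bases 2 to 8) in capitals.
miR-9-5p: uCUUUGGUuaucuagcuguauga
miR-9-3p: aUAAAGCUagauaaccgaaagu

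The libraries held 26104576 to 55294838 counts in peaks, and those of batches 3 and 4 held 26283668 to 55294838. One library stood apart, that of animal 45, which was a female of the handled group (0 min, batch 4). Its TMM scaling factor was 0.875, while those of the other libraries lay between 0.970 and 1.03. Peaks within 1 kb of a gene end took 42.1% of its counts, against 37.7% to 40.2% in the others. The lost peaks took 0.240% of its counts (95% Wilson interval 0.238% to 0.241%, counting error only), the highest share of the 30 libraries. Against the other 3 libraries at 0 min in batch 4, it was higher at the lost peaks by a median log2 of 0.43, at gained peaks by 0.016 and at eligible peaks by 0.0022. It was the highest of the 8 libraries at 0 min in batches 3 and 4 at 354 lost peaks (70.8%), against 29.2% of all tested peaks. Most changes below are therefore given with and without it. Gene-end peaks of marker genes were measured for 21 of 22 excitatory neuron markers (median 19.3 TMM-scaled CPM) and 18 of 20 inhibitory neuron markers (4.91). They were measured for 13 of 16 astrocyte markers (15.8), 17 of 18 oligodendrocyte markers (3.19) and 13 of 16 microglia markers (5.14). Oligodendrocyte precursors had 12 of 12 (5.52). Endothelial and mural cells had 9 of 16 (3.85), and choroid plexus and ependyma 5 of 10 (5.19). These peaks alone do not show which cell types were present.

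In batches 1 and 2 the lost peaks differed by a median of -0.29 on the log2(CPM + 0.5) scale (range -0.52 to -0.097), with t from -9.02 to -4.10. These values chose the peaks and are given as a description. In batches 3 and 4 no lost peak passed at an adjusted p under 0.05 in edgeR's quasi-likelihood test with Benjamini-Hochberg adjustment, and no tested peak did in that direction (0%). The median log2 change of the lost peaks was -0.097. The change was negative at 368 of 500 lost peaks, 73.6%, against 51.8% of the 257143 peaks tested. At an unadjusted p under 0.05, 61 lost peaks (12.2%) were lower, against 2.0% of all tested, and 0 were higher, against 1.6%.

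Without animal 45 these values were smaller. The median log2 change of the lost peaks was -0.042, negative at 304 peaks (60.8%), against 50.2% of all tested. At an unadjusted p under 0.05, 48 (9.6%) were lower, against 2.79%, and 8 (1.6%) were higher, against 3.37%. No lost peak was called by edgeR's quasi-likelihood test, while 14 peaks (0.00544%) were called lower among all tested, and the smallest adjusted p of a lost peak was 0.101. The count of lost peaks lower at an unadjusted p under 0.05 also changed when other libraries were left out. It was 36 without the chronically restrained animal 51 at 0 min, 34 without the chronically restrained animal 23 at 45 min and 35 without the handled animal 71 at 45 min. It was 103 without the chronically restrained animal 66 at 45 min. The share over all tested peaks, 2.0% with all libraries and 2.79% without animal 45, was not taken for these other fits. How far these counts follow that share was therefore not tested.

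The mean level of the lost peaks in each library, as mean log2(CPM + 0.5) minus that of all eligible peaks, showed the same in single mice. In batches 1 and 2 the level ran from 0.20 to 0.30 (median 0.23) at 0 min and from -0.093 to 0.060 (median -0.069) at 45 min, a separation that the rule itself made. In batches 3 and 4 it ran from 0.019 to 0.51 (median 0.13) in the 8 libraries at 0 min and from -0.036 to 0.15 (median 0.048) in the 6 at 45 min. The times therefore overlapped in batches 3 and 4. Without animal 45 the highest level at 0 min was 0.20. The gained peaks, chosen the same way in the other direction, did not overlap there. Their level ran from 0.67 to 0.74 at 0 min and from 0.78 to 0.83 at 45 min.

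**Figure D1:**
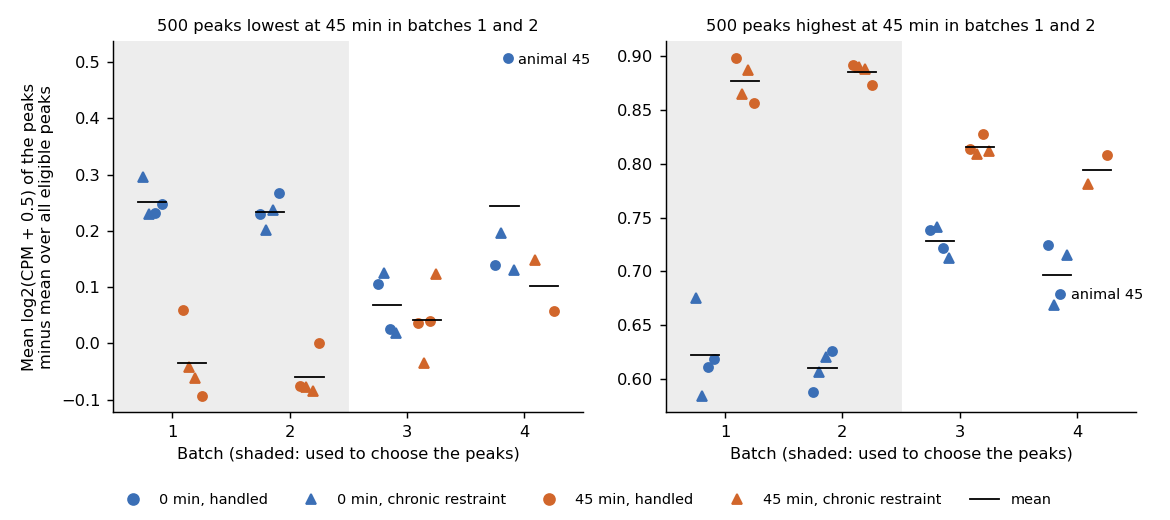
Mean log2(CPM + 0.5) of the 500 lost peaks (left) and of the 500 gained peaks (right) minus the mean over all eligible peaks, for each library by batch; blue is 0 min, orange 45 min, circles handled, triangles chronically restrained and lines the means. At the lost peaks the times separate in the shaded batches that chose them, and in batches 3 and 4 they overlap, with animal 45 at 0.51; the gained peaks stay apart in batches 3 and 4.

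Batch 3, which does not hold animal 45, gave a smaller difference than batch 4. The median log2 difference of batch means over the lost peaks was -0.28 in batch 1 and -0.29 in batch 2, where it was fixed by the rule. It was -0.029 in batch 3, negative at 292 peaks (58.4%, against 49.8% of eligible peaks). In batch 4 it was -0.16, negative at 381 (76.2%, against 51.63%). Without animal 45 it was -0.057 in batch 4, negative at 320 peaks (64.0%, against 49.57%). At 231 lost peaks (46.2%) the mean was lower at 45 min in both batches, against 25.3% of all tested peaks, and at 210 (42.0%) without animal 45, against 25.9%. All 6 libraries at 45 min lay below all 8 at 0 min at 1 lost peak (0.2%), against 0.0342% of all tested peaks, and at 1 without animal 45 (0.2%), against 0.0622%. Fitted within one sex, the median was -0.15 in females and -0.051 in males, and -0.059 in females without animal 45.

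Handled and chronically restrained mice were also fitted apart within batches 3 and 4. No lost peak was called in either history, with or without animal 45, and no tested peak was called lower in either (0%). In handled mice the median log2 change was -0.17 and 387 lost peaks (77.4%) were negative, against 52.3% of all tested. At an unadjusted p under 0.05, 77 (15.4%) were lower, against 2.16%. Without animal 45, which is one of the 4 handled mice at 0 min, the median was -0.059, 308 (61.6%) were negative, against 50.0%, and 37 (7.4%) were lower at an unadjusted p under 0.05, against 2.55%. In chronically restrained mice the median was -0.027, 281 (56.2%) were negative, against 50.0%, and 5 (1.0%) were lower at an unadjusted p under 0.05, against 1.48%. Without animal 45, which enters this contrast only through sex, batch and the spread, these were -0.032, 285 negative (against 49.9%) and 17 (3.4%, against 2.27%).

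**Figure D2:**
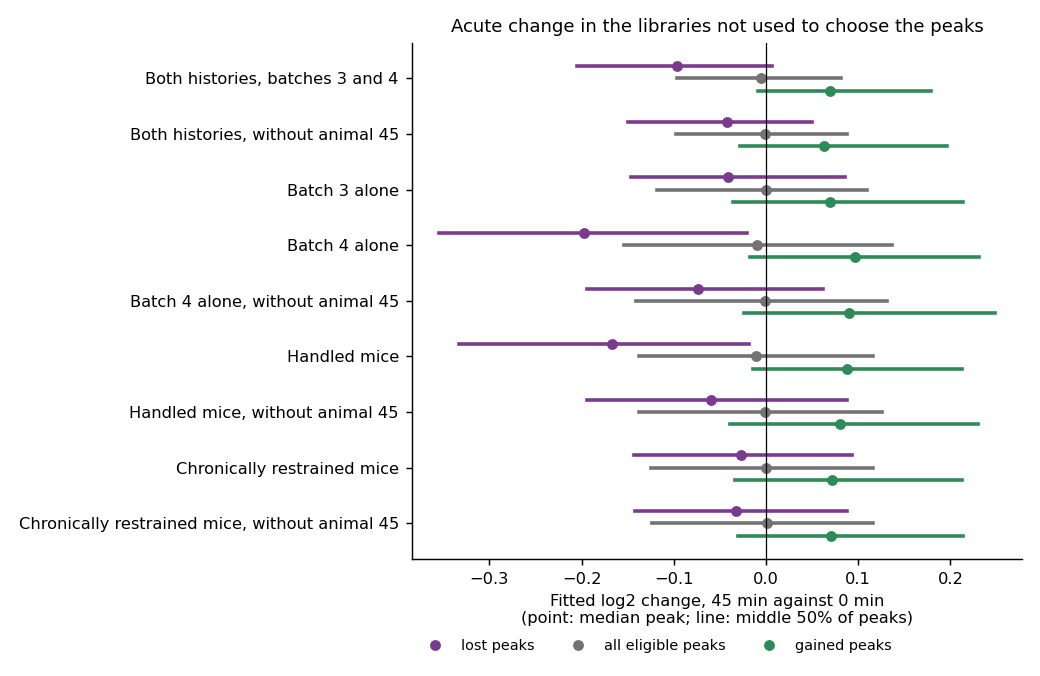
Fitted log2 change at 45 min against 0 min in batches 3 and 4 for lost peaks (purple), all eligible peaks (grey) and gained peaks (green); points are medians over peaks and lines the middle 50% of peaks. The lost peaks' median moves from -0.097 to -0.042 without animal 45 and from -0.17 to -0.059 in handled mice, while that of the gained peaks stays between 0.063 and 0.097 in these fits.

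Chronic history and sex were compared in batches 3 and 4 as well, by the same edgeR fits. For the difference of the acute effect between histories (chronically restrained minus handled), no lost peak and no tested peak (0%) was called. Its median log2 was 0.15 at the lost peaks and 0.013 at all tested peaks, and 0.032 and -0.0013 without animal 45. At an unadjusted p under 0.05, 19 lost peaks (3.8%) were higher, against 1.53% of all tested, and 1 (0.2%) was lower, against 1.45%. Without animal 45 these were 12 (2.4%, against 2.03%) and 6 (1.2%, against 2.02%).

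Chronic restraint at 0 min called no lost peak and no tested peak (0%). Its median was -0.12 at the lost peaks and -0.016 at all tested peaks, and 0.034 and 0.0017 without animal 45. Of the lost peaks, 33 (6.6%) were lower at an unadjusted p under 0.05, against 2.32%, and 2 (0.4%) were higher, against 1.77%. These counts became 9 (1.8%, against 2.58%) and 15 (3.0%, against 2.82%) without animal 45. Averaged over both times, chronic restraint called none either (0%), with a median of -0.044 at the lost peaks, and 0.052 without animal 45. By the unadjusted p, 11 (2.2%) were lower, against 1.68%, and 4 (0.8%) were higher, against 1.26%. Leaving out animal 45 gave 8 (1.6%, against 2.44%) and 30 (6.0%, against 2.76%).

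Between females and males no lost peak was called in batches 3 and 4, against 0.0156% of all tested peaks, and none without animal 45, against 0.0206%. The median (females minus males) was 0.057 at the lost peaks, and -0.029 without animal 45. By the unadjusted p, 21 (4.2%) were higher in females, against 1.64%, and 4 (0.8%) were lower, against 1.3%. The counts were 5 (1.0%, against 2.1%) and 20 (4.0%, against 2.14%) without animal 45. The sign of the median thus turned without this library for chronic restraint at 0 min, for its average over both times and for sex.

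Fitted over all 30 libraries, these comparisons called no lost peak, against 0% of all tested peaks for the histories and 0.035% for sex. The medians at the lost peaks were 0.049 for the difference between histories, -0.062 for chronic restraint at 0 min, -0.039 averaged over times and 0.042 for sex. They were -0.0073, -0.0058, -0.0055 and 0.0081 without animal 45. Of these libraries 16 had chosen the peaks, by a t that favours little spread within a time, so these medians are not independent of the choice.

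The peaks with the smallest t in batches 1 and 2 differed in how they read in batches 3 and 4. Adjusted p-values in this and the next 3 paragraphs are from edgeR's quasi-likelihood test over all tested peaks, levels are TMM-scaled CPM, and changes are log2 with the standard error of the fit. The smallest t belonged to a 256 bp peak at chr16:63466711-63466966, 76566 bp from Epha3, which encodes a receptor for ephrins that guides axons. Its level was 0.934 to 1.07 (median 1.02) at 0 min and 0.595 to 0.804 (median 0.736) at 45 min in batches 1 and 2. In batches 3 and 4 it was 0.560 to 2.25 (median 1.08) at 0 min and 0.465 to 1.25 (median 0.832) at 45 min. The times overlapped, and animal 45 was the highest at 2.25. The change there was -0.38 ± 0.22 (adjusted p = 1.0 by edgeR), and -0.26 ± 0.19 without animal 45.

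A peak within Immp2l, which encodes a subunit of a peptidase of the mitochondrial inner membrane, had a level of 0.912 to 1.49 (median 1.07) at 0 min and 0.635 to 0.997 (median 0.820) at 45 min in batches 1 and 2. Its level in batches 3 and 4 was 0.859 to 1.36 (median 1.10) at 0 min and 0.489 to 0.982 (median 0.815) at 45 min, with overlap. The change was -0.43 ± 0.17 (adjusted p = 1.0 by edgeR), and -0.41 ± 0.18 without animal 45. A peak 5381 bp from Cnrip1, whose product binds the cannabinoid receptor CB1, had a level of 4.03 to 6.61 (median 5.09) at 0 min and 3.16 to 5.31 (median 4.37) at 45 min. Its change was -0.25 ± 0.10, and -0.23 ± 0.095 without animal 45.

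The other 5 of the 8 smallest t gave values between -0.11 and 0.25 in batches 3 and 4. A peak within Jarid2, which encodes a subunit of Polycomb repressive complex PRC2, gave -0.080 ± 0.13, and -0.0072 ± 0.12 without animal 45. A peak within Tmtc1 gave -0.11 ± 0.15, and -0.055 ± 0.14 without animal 45. A peak within Ccdc138 gave -0.047 ± 0.18, and 0.090 ± 0.16 without animal 45, a change of sign. A peak within Rps6ka5, which encodes the kinase MSK1 that phosphorylates CREB and histone H3, gave 0.00030 ± 0.20, and 0.043 ± 0.19 without animal 45. A peak 360501 bp from the odorant receptor gene Olfr161 was on the other side of 0, at 0.25 ± 0.18, and 0.18 ± 0.17 without animal 45. None of the 8 was called. Taken by t in 5 bins of 100, the lost peaks had medians of -0.088, -0.082, -0.12, -0.068 and -0.11 in batches 3 and 4, from the smallest t to the last, with no steady order. Without animal 45 these medians were -0.021, -0.033, -0.074, -0.036 and -0.046, each closer to 0.

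The smallest p in batches 3 and 4 belonged to a 992 bp peak at chr4:114374189-114375180, 31502 bp from Trabd2b, which encodes a membrane metalloprotease that cleaves Wnt proteins. Its level was 2.85 to 4.20 (median 3.35) in the 8 libraries at 0 min and 2.33 to 2.72 (median 2.50) in the 6 at 45 min. It was the lost peak at which the times did not overlap. The change was -0.47 ± 0.11 (adjusted p = 0.785 by edgeR), and -0.45 ± 0.11 (adjusted p = 0.101) without animal 45. In batches 1 and 2 its level was 3.05 to 4.25 (median 3.42) at 0 min and 2.50 to 3.25 (median 2.73) at 45 min. A 332 bp peak within Pcdh15 at chr10:74403203-74403534 came next. Pcdh15 encodes a protocadherin best known from the tip links of hair cells. Its level was 1.14 to 2.25 (median 1.39) at 0 min and 0.697 to 1.33 (median 0.861) at 45 min, with animal 45 the highest. The change was -0.72 ± 0.18 (adjusted p = 0.789 by edgeR), and -0.64 ± 0.16 (adjusted p = 0.126) without animal 45.

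These 2 peaks and a peak within Mia2, which encodes a protein of endoplasmic reticulum exit sites, passed when a library measure was added to the model. With the share of counts in gene-end peaks as a covariate, the adjusted p by edgeR was 0.0455 for Trabd2b (-0.48), 0.0168 for Pcdh15 (-0.76) and 0.0273 for Mia2 (-0.70). That fit called 50 peaks lower, 0.0194% of those tested. With the share of counts in the top 1% of peaks as a covariate, Pcdh15 passed at an adjusted p of 0.0287 (-0.84), among 16 peaks called lower (0.00622%). These are 3 and 1 of the 500 lost peaks. Both fits held animal 45, and neither was run without it. Its gene-end share, 42.1%, was the highest among the libraries fitted, and the next was 39.9%.

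The other peaks with the smallest p were all without a call. A peak within Prkar2a, which encodes a regulatory subunit of protein kinase A, had a level of 2.02 to 4.19 (median 2.41) at 0 min and 1.25 to 2.09 (median 1.74) at 45 min. Animal 45 was at 4.19 and the next library at 0 min was at 2.66. Its change was -0.52 ± 0.14, and -0.44 ± 0.13 without animal 45. A peak within Ano10, of the anoctamin family of membrane proteins, gave -0.51 ± 0.15, and -0.45 ± 0.14 without animal 45. A peak within Tenm2, which encodes the adhesion protein teneurin-2, gave -0.69 ± 0.22, and -0.58 ± 0.20. A peak within Nav2, which encodes a neuron navigator of the cytoskeleton, gave -0.44 ± 0.14, and -0.45 ± 0.15. Peaks within Chst9 (-0.53 ± 0.16), 22148 bp from Fam135a (-0.59 ± 0.18) and 4479 bp from Gm52030 (-0.39 ± 0.12) completed the 10. Without animal 45 these 3 gave -0.41 ± 0.14, -0.49 ± 0.16 and -0.36 ± 0.11. The 10 were chosen by p among negative changes in these libraries, so their sign is no result.

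The 3 largest positive values in batches 3 and 4 had the sign opposite to that of the choice. A peak within Rims1, which encodes a scaffold of the presynaptic active zone, had a level of 0.833 to 1.22 (median 1.06) at 0 min and 0.503 to 0.784 (median 0.709) at 45 min in batches 1 and 2. It was, in batches 3 and 4, 0.561 to 1.22 (median 0.749) at 0 min and 0.857 to 1.17 (median 1.01) at 45 min. The change was 0.33 ± 0.18, and 0.28 ± 0.18 without animal 45. A peak 5289 bp from Pigt, a subunit of the enzyme that attaches glycolipid anchors, gave 0.33 ± 0.17, and 0.38 ± 0.17 without animal 45. A peak within Thsd7a gave 0.32 ± 0.19, and 0.42 ± 0.19 without animal 45. None of these 3 was called. At the edge of the rule, the last 3 members, nearest Pde1a, Samd5 and Med27, had t of -4.10 in batches 1 and 2. The first 3 outside, nearest Prkce, Zhx1 and Cpne8, had t from -4.10 to -4.09, so the line between them was arbitrary.

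**Figure D3:**
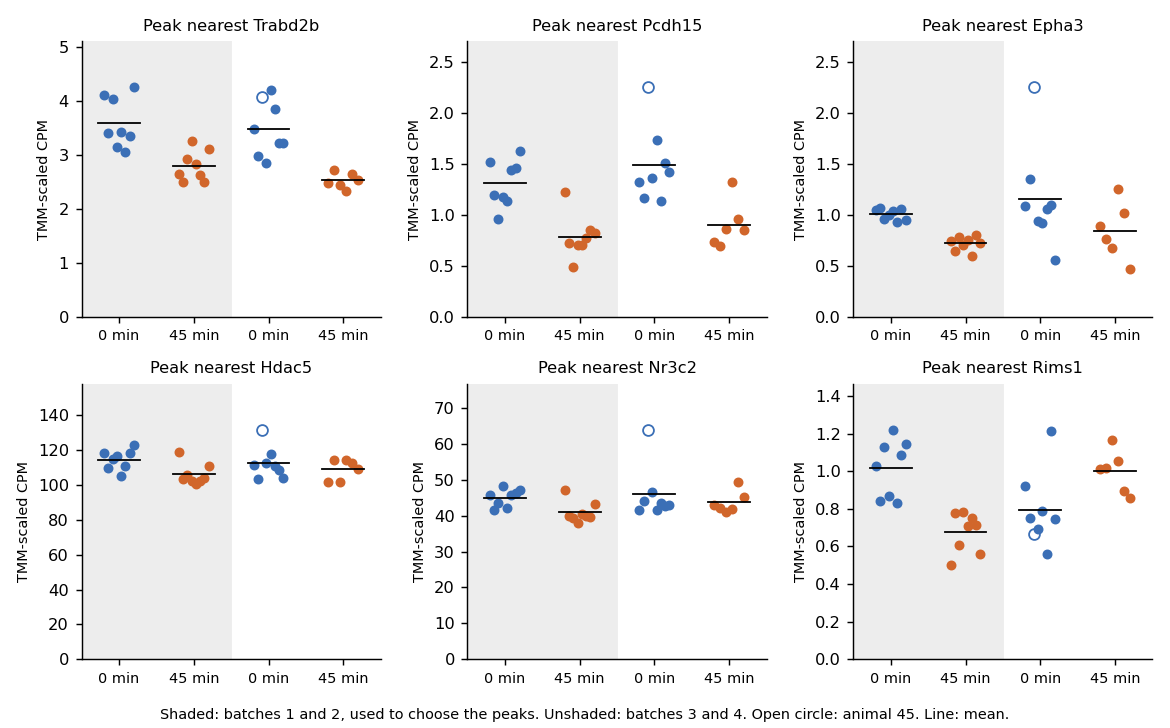
TMM-scaled CPM of 6 lost peaks in each library, in batches 1 and 2 (shaded) and in batches 3 and 4, at 0 min (blue) and 45 min (orange), with the mean as a line and animal 45 as an open circle. At Trabd2b the 6 libraries at 45 min (2.33 to 2.72) lie below all at 0 min in batches 3 and 4, at Nr3c2 animal 45 stands alone at 63.9, and at Rims1 the order is turned around.

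Lost peaks lay farther from genes than eligible peaks did. Over 100 kb from any protein coding gene lay 20.8% of them (104 peaks), against 5.54% of eligible peaks and 3.4% of gained peaks. Over 500 kb away lay 3.8%, against 0.689%. Within 1 kb of a gene end lay 4.6% (23 peaks), against 10.4% of eligible and 17.2% of gained peaks. Within a gene and over 1 kb from its ends lay 52.6%, against 61.6% and 59.8%. The genes they lay in were long. Their median length was 193026 bp for the 281 lost peaks within a gene, against 103100 bp for eligible and 64771.5 bp for gained peaks, and 27.6% of lost peaks lay in genes of over 200 kb, against 21.3% of eligible peaks.

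**Figure D4:**
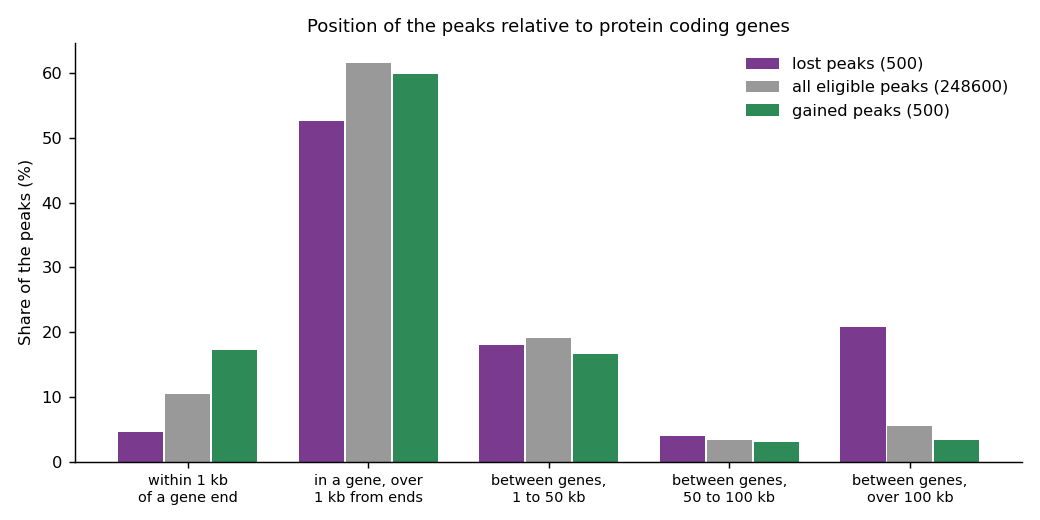
Share of lost (purple), eligible (grey) and gained (green) peaks, in percent, in 5 classes of position relative to protein coding genes. Lost peaks have the tallest bar over 100 kb from genes (20.8%) and the shortest within 1 kb of a gene end (4.6%).

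The distal class moved with animal 45 in eligible peaks as well, and it was not alone in this. At eligible peaks covering a RefSeq transcription start, animal 45 exceeded the other batch 4 libraries at 0 min by a median log2 of 0.38. Their median change in batches 3 and 4 was -0.0027, and 0.042 without animal 45. The same excess was 0.13 within 1 kb of a gene end and -0.039 inside genes over 1 kb from their ends. At the 13775 eligible peaks over 100 kb from genes, animal 45 was higher than the other libraries at 0 min in batch 4 by a median log2 of 0.34. Their median change in batches 3 and 4 was -0.038, and 0.0098 without animal 45. In batches 1 and 2, where that library was absent, eligible peaks of this class had a median difference of -0.055 on the log2(CPM + 0.5) scale, against -0.0013 for all eligible peaks. At the 104 lost peaks of this class the median change in batches 3 and 4 was -0.11, and -0.028 without animal 45, with 54.8% negative without it. At the 263 lost peaks inside genes the median was -0.083, and -0.041 without animal 45. Here 71.5% and 60.5% were negative, against 51.4% and 52.3% of eligible peaks there. The 23 lost peaks near gene ends gave -0.043 and -0.031, with 78.3% and 69.6% negative, against 48.9% and 38.3% of eligible peaks there. The counts of animal 45 entered the choice of the lost peaks through the filter on mean count alone.

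In width the lost peaks were close to eligible peaks and narrower than gained peaks, and in depth they lay between both. Their median width was 538.5 bp (147 to 21446 bp), against 575 bp for eligible and 939 bp for gained peaks. Of the lost peaks, 0.4% were 10000 bp or wider, close to the 0.612% of eligible peaks, against 5.2% of gained peaks. Their median mean count per library was 70.5, against 60.5 for eligible and 110.6 for gained peaks, so a single peak carried limited precision. The share negative in batches 3 and 4 was 60.0% at mean counts of 20 to under 40, 71.8% at 40 to under 80, 79.2% at 80 to under 160 and 84.2% at 160 or more. Without animal 45 these shares were 53.6%, 60.6%, 64.2% and 64.9%. Among eligible peaks they were 52.3%, 52.5%, 51.9% and 49.4%, and without animal 45 they were 52.8%, 53.9%, 51.5% and 38.4%.

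The lost peaks were scattered over genes, and so were the gained peaks. The lost peaks had 467 different nearest genes, of which 31 had 2 lost peaks, and no gene had more than 3. The gained peaks had 463, of which 27 had 2, and again no gene had more than 3. Only 1 pair of neighbouring lost peaks lay within 10 kb and 15 within 100 kb, against 15 and 61 pairs of gained peaks. Chromosome 1 held the most (44 peaks, 8.8%, against 7.03% of eligible peaks) and chromosome 19 the fewest (16, 3.2%, against 2.44%). Relative to eligible peaks, chromosome 11 held a smaller share (4.0%, against 7.09%) and chromosome 18 a larger one (5.0%, against 3.38%). Genes with 2 lost peaks included Robo2, Ctnna2, Nrg3, Auts2 and Dlg2, examples picked from the 31 after the list was seen.

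Wide and gene-end peaks gave the most precise values. The 17426 bp peak over the Hdac5 promoter, at chr11:102213413-102230838, had a level of 105.4 to 122.8 (median 115.8) at 0 min and 100.8 to 118.8 (median 103.9) at 45 min in batches 1 and 2. The level in batches 3 and 4 was 103.4 to 131.7 (median 111.3) at 0 min and 101.8 to 114.4 (median 111.1) at 45 min. Animal 45 was at 131.7, and the medians of the times were close. The change was -0.043 ± 0.064, and -0.019 ± 0.042 without animal 45. A second peak of Hdac5, 9743 bp wide, gave -0.052 ± 0.066 and -0.044 ± 0.048. The peak over the Nr3c2 promoter, at chr8:76898573-76903140, had a level of 41.5 to 48.2 (median 45.7) at 0 min and 38.0 to 47.0 (median 39.9) at 45 min in batches 1 and 2. The range in batches 3 and 4 was 41.6 to 63.9 (median 43.3) at 0 min and 41.1 to 49.3 (median 42.6) at 45 min. The next library below animal 45 was at 46.7. Its change was -0.040 ± 0.081, and 0.024 ± 0.048 without animal 45, a change of sign.

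The peak over the Notch1 promoter, the gene of a receptor that holds neural precursors undifferentiated, gave 0.014 ± 0.077, and 0.058 ± 0.052 without animal 45. The peak over the Ephx4 promoter gave -0.066 ± 0.083, and -0.014 ± 0.055. The miR-9-1 peak had a level of 133.9 to 157.5 (median 144.0) at 0 min and 120.7 to 140.2 (median 131.8) at 45 min in batches 1 and 2. Its range in batches 3 and 4 was 132.5 to 166.5 (median 137.9) and 126.0 to 138.2 (median 132.5). The times overlapped in both. Its change was -0.093 ± 0.062, and -0.067 ± 0.040 without animal 45. None of these peaks was called.

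The 775 bp peak over the Hdac9 promoter whose window carries the AP-1 letters had the largest difference of the lost peaks in batches 1 and 2 (-0.52 on the log2(CPM + 0.5) scale). Its level there was 3.69 to 5.50 (median 4.21) at 0 min and 2.23 to 3.98 (median 3.12) at 45 min. In the other batches it was 2.46 to 7.33 (median 4.05) at 0 min and 2.73 to 3.81 (median 3.14) at 45 min, and without animal 45 the highest library at 0 min was at 5.04. Its change was -0.36 ± 0.13 (adjusted p = 1.0 by edgeR), and -0.28 ± 0.11 (adjusted p = 0.623) without animal 45. Hdac9 and Hdac5 encode class IIa histone deacetylases, which leave the nucleus upon neuronal activity.

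Among 18 gene lists, with a peak counted if it lay in a list gene or within 10 kb, genes of synaptic adhesion and axon guidance held the most lost peaks. These were 16 peaks at 13 of 62 genes, 3.2% of lost peaks against 1.51% of eligible peaks and 5 gained peaks. None was called in batches 3 and 4, 12 were negative and 9 without animal 45, with medians of -0.094 and -0.021. The same medians over all eligible peaks of the list were -0.021 and -0.0087, and 56.1% of those peaks were negative with animal 45. These genes included Tenm2, Ephb1, Ntm, Opcml, Ptprd, Robo2, Ctnna2, Cntn5, Cntn6 and Unc5c. The 2 peaks of Ephb1, an ephrin receptor, gave -0.14 ± 0.091 and -0.24 ± 0.16, and -0.088 ± 0.077 and -0.24 ± 0.16 without animal 45.

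Genes of cyclic AMP signalling held 5 lost peaks (1.0%, against 0.536% of eligible peaks), none called and 4 negative. Their median was -0.11, and -0.038 without animal 45. Of all eligible peaks of that list 50.7% were negative, with medians of -0.0034, and -0.0044 without animal 45. Beside Prkar2a, a peak of the phosphodiesterase Pde1c gave -0.46 ± 0.18, and -0.38 ± 0.18 without animal 45, and the peak of Pde4a gave 0.075 ± 0.075, and 0.092 ± 0.057 without it. Histone and DNA modifying enzymes held 5 (1.0%, against 0.415%), at Hdac5, Hdac9, Jarid2 and Kat2b. None was called, 4 were negative, and the median was -0.052, and -0.019 without animal 45. Of the eligible peaks there 47.0% were negative, with medians of 0.0061, and 0.0070 without animal 45. Calcium and sodium channels held 3 (0.6%, against 0.613%), at Cacna1d, Cacnb2 and Scn8a, all negative. Their median was -0.14, and -0.11 without animal 45. The eligible peaks there were negative at 50.3%, with medians of -0.0022, and -0.0070 without animal 45. Glutamate receptors held 3 (0.6%, against 0.641%). The peak of Grm8, a presynaptic metabotropic receptor, gave -0.29 ± 0.14, that of the NMDA receptor subunit gene Grin2d gave 0.30 ± 0.18 and that of Grin2a gave 0.0071 ± 0.099. Without animal 45 they gave -0.22 ± 0.14, 0.33 ± 0.18 and -0.011 ± 0.098, the last with a change of sign. Potassium channels held 1 (0.2%, against 0.532%), at Kcnma1 (-0.0080 ± 0.11, and -0.026 ± 0.10 without animal 45), and cadherins held 1 (0.2%, against 0.278%), at Pcdh15. The shares of these 4 lists were at or below those of eligible peaks.

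The stress and activity lists held no lost peak. Targets of the glucocorticoid receptor had 430 eligible peaks at 31 genes, with 0 lost and 13 gained peaks. Immediate early genes had 406 eligible peaks at 46 genes, with 0 lost and 0 gained peaks. GABA receptors had 444, also with 0 of both. Among cell type markers, lost peaks lay at Nr3c2 (in the excitatory neuron list), Slc4a4, a bicarbonate transporter of astrocytes, and Olig2, a transcription factor of the oligodendrocyte lineage. The Slc4a4 peak gave -0.39 ± 0.19 in batches 3 and 4, and -0.36 ± 0.20 without animal 45. The Olig2 peak gave -0.063 ± 0.12, and -0.066 ± 0.12 without animal 45. Neither was called. Inhibitory neuron, microglia, endothelial and choroid plexus markers held 0. With 500 lost peaks among 248600 eligible ones, a count of 0 in a list of this size says little.

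The gained peaks in batches 3 and 4 had a median log2 change of 0.069, positive at 72.0%, against 48.2% of all tested peaks. At an unadjusted p under 0.05, 20.0% were higher, against 1.6%, and 0 were called higher by edgeR, against 0.000389% of all tested. Without animal 45 the median was 0.063, positive at 68.6%, against 49.8%, with 25.2% higher at an unadjusted p under 0.05, against 3.37%. In that fit 33 gained peaks were called higher, against 0.0657% of all tested. The lost peaks went from a median of -0.097 to -0.042, with 0 called in both. Whether the lists differed in size of change was not tested.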

How the data were processed

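ATAC-seq counts of 30 mouse ventral hippocampus libraries were used. The authors deposited raw counts as whole numbers per peak for peaks common to all libraries. Per the submitters' processing notes, Trimmomatic, Bowtie2, Picard and Genrich 0.6.1 were used with GRCm38; how peaks were combined, and whether reads, fragments or insertions were counted, is not given in the sources used here. The table's 2 columns that matched no sample were not used. The rule, the gene lists and the peaks to name were chosen with earlier results of these data known. Genes are protein coding genes of RefSeq on GRCm38.p6 (21896); promoter windows and microRNAs are RefSeq's of that build. Peaks of batches 3 and 4 were filtered (filterByExpr, 257143 left, all 500 lost peaks among them) and fitted in edgeR 4.0.16 (TMM, robust quasi-likelihood, 4 groups with sex and batch, 8 residual degrees of freedom), averaging the acute effect over histories, with Benjamini-Hochberg adjustment and calls at 0.05. On simulated counts for this comparison (257142 peaks), 46.0% of peaks lowered by a log2 of 0.5 and 94.0% of those lowered by 1 were called. In that simulation 9 unchanged peaks were called too. It took the spread from an assumed curve, with the same mean in every batch and sex and no library like animal 45. It therefore checks the code and does not give the share that would be called in the real libraries. Level summaries are TMM-scaled CPM. Named peaks were the 8 smallest t, the 10 smallest p among negative changes, the 3 largest positive changes, ranks 498 to 503, 4 gene-end peaks of highest count, the 2 widest and up to 2 per list; a further class of that rule is not reported here. P-values measure the spread between these animals. Peak coordinates are printed as the deposited table gives them, and whether its starts count from 0 or 1 is not stated. Alternatives tried are in the closing section.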

Additional observations from a re-analysis of the deposited data

Results flagged for a closer look

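In batches 3 and 4, the lowest and the highest library of each time were compared with their neighbours for the mean level of the lost peaks, that of the gained peaks and each named lost peak, 62 groups of 8 or 6 libraries in all. A library stood far from the rest in 7, and in all 7 it was animal 45 as the highest at 0 min. About 1 in 20 groups of independent, normally distributed values would pass this limit. The groups here share the same libraries, and some peaks were named for a small p in them, so that rate is no measure for the 7. The mean log2 level of the lost peaks, with the batch mean subtracted, was 0.31 in animal 45 and 0.070 in the next library. On the log2(CPM + 0.5) scale, animal 45 was at 1.42 and the next library at 0.78 for the Ccdc138 peak, at 1.90 and 1.18 for Mia2, at 2.23 and 1.66 for Prkar2a, at 6.01 and 5.56 for Nr3c2, at 5.16 and 4.81 for Ephx4, and at 7.38 and 7.17 for the miR-9-1 peak nearest Rhbg. No library at 45 min and none at the gained peaks' mean level stood apart in this way.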

How the results depend on the processing

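No paired analysis was possible because the replicate numbers are animal numbers and no 2 groups share one. The median log2 change of the lost peaks in batches 3 and 4 stayed negative in every setting run, between -0.20 (batch 4 alone) and -0.031 (the 250 smallest t, without animal 45), and leaving out single libraries moved it between -0.14 and -0.042. Calls among the lost peaks stayed at 0 under total count scaling, relative log expression factors, DESeq2, other filters, batch as the sole covariate, single batches or sexes and single libraries left out. They were 1 with the top 1% share as a covariate and 3 with the gene-end share, in fits that held animal 45. Of the 1000 smallest t, 1 was called without animal 45. Lost peaks lower at an unadjusted p under 0.05 numbered 61 (12.2%, against 2.0% of all tested peaks). They numbered 119 with the top 1% share (23.8%, against 3.88%) and 106 with the gene-end share (21.2%, against 3.51%). In batch 3 alone they numbered 29 (5.8%, against 2.34%) and in males 32 (6.4%, against 2.67%). Without animal 45 they numbered 31 in batch 4 (6.2%, against 1.82%) and 35 in females (7.0%, against 2.26%). With single libraries left out they numbered 34 to 103, and the share over all tested peaks was taken only for animal 45. The causes were not tested. TMM-scaled CPM in the rule chose 431 of the same 500 peaks, and regressing out sex too chose 389. The settings without animal 45 that combine it with batch 4, females or another list were chosen after seeing the data.

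Signs of single peaks turned as follows. In batch 3 alone the change was 0.25 at Ccdc138, 0.13 at Pde1a, 0.065 at Samd5, 0.0041 at Hdac5, 0.028 at Nr3c2, 0.047 at Ephx4 and -0.0070 at Rps6ka5. In males it was 0.23 at Ccdc138, 0.031 at Hdac5, 0.098 at Nr3c2, 0.069 at Ephx4 and -0.040 at Rps6ka5. In batch 4 it was 0.037 at Jarid2 and -0.0018 at Pigt, and 0.15 and -0.012 without animal 45. In females it was 0.030 at Samd5, and without animal 45 0.11 there, 0.056 at Tmtc1 and 0.0072 at Jarid2. Rps6ka5 gave -0.0041 with DESeq2, -0.0045 with relative log expression factors, -0.0058 with the top 1% share and -0.0021 with the gene-end share, and Notch1 gave -0.011 with the top 1% share. With single libraries left out the ranges were -0.16 to 0.12 (Ccdc138), -0.015 to 0.078 (Notch1), -0.11 to 0.024 (Nr3c2), -0.24 to 0.0017 (Pde1a), -0.043 to 0.061 (Rps6ka5) and -0.063 to 0.084 (Samd5). A median lost peak had 70.5 counts per library, which limits the precision of a single peak.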
